A study of Mus musculus with 8 samples.

Results

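Lysosomal hydrolase and membrane genes were followed across the cell types of the mouse hippocampus. The set held 41 genes chosen by name, all of them among the 30211 genes of the count tables. It held 9 cysteine proteases (8 cathepsins and the asparaginyl endopeptidase legumain), 3 other proteases, 10 glycosidases and 3 sulfatases. A lipid group of 6 genes held enzymes and activators of lipid breakdown, with Ppt1 and Grn counted there too. The rest were 9 genes of the membrane and of lipid transfer, and Tfeb, a transcription factor of lysosomal genes. Expression was read in 8 single-nuclei RNA-seq libraries, each from 1 mouse on a C57BL/6 background.

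Lysosomes are the acidic compartment in which cells break down proteins, glycans and lipids that arrive by endocytosis, phagocytosis and autophagy. Their soluble enzymes act in the lumen, while heavily glycosylated proteins such as LAMP1 and LAMP2 line the membrane. Loss of single members causes storage disorders that often damage neurons. Microglia, the phagocytes of the brain, are known for a large lysosomal compartment and for expressing many cathepsins.

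Mice without the J20 transgene, 3 WT and 3 GKO, were 7 mo old. Those with it, 1 J20;WT mouse and 1 J20;GKO mouse, were 6 mo old. GKO mice are constitutive knockouts of GSAP, the γ-secretase activating protein, made by deleting floxed exons with a Cre recombinase under the CMV promoter, so every tissue carries the deletion. J20 mice carry human APP with the Swedish and Indiana mutations under the PDGFB promoter, which is active mainly in neurons. Males and females were used. The 2 J20 mice were younger than the other 6, so age and transgene cannot be told apart.

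Libraries held 2731 to 5252 nuclei after filtering and 21020159 to 43310978 UMIs (unique molecular identifiers, each standing for 1 captured RNA molecule). Gsap, the targeted gene, was at 22.8 to 24.1 CPM (the UMIs of a gene, scaled to the same total UMI count in every library and type) over the nuclei of the 6 cell types in the WT libraries, at 21.6 to 22.1 in those labelled GKO, at 21.4 in J20;GKO and at 20.4 in J20;WT. Gsap UMIs did not mark the knockout, so the groups are those of the labels alone. The paper reported the excision of the targeted exons by genomic PCR and lower GSAP mRNA by quantitative RT-PCR. Whether the UMI counts can show a loss of inner exons was not tested. The first WT, first GKO and J20;GKO libraries had Xist RNA, at 2060 to 2360 CPM, and the other 5 were at 1.66 to 2.52. By the dates that the deposited data carry, the first WT and first GKO libraries form a pair, J20;WT stands alone and the other 5 share a date. Of 31895 distinct barcodes, 134 occurred in 2 or more libraries.

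Nuclei were assigned to types by 10 marker genes per type. The gate took 11350 nuclei as excitatory neurons, 1240 as inhibitory neurons, 2702 as astrocytes, 7116 as oligodendrocytes, 1008 as oligodendrocyte precursor cells (OPCs) and 2077 as microglia, and left 6040 of 32041 unassigned. Clusters were named from the same markers and limits as the gate. Among the 24824 nuclei that were in the gate and in a named cluster, both names matched for 99.8%. The match is therefore not an independent check. Microglial nuclei were shallow, with a median of 1942 UMIs against 10142.5 in excitatory neurons, and each library gave 185 to 324 of them. As a check outside the gate, 9 further microglial genes summed to 6785.3 to 12326.0 CPM in gated microglia and to 9.851 to 16.26 CPM in excitatory neurons.

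Microglia held the highest level of most lysosomal genes. By mean CPM over the 8 mice, microglia ranked first for 26 of the 41 genes, and they ranked first in every library for 18 of these. For 15 genes, the lowest microglial library lay above the highest library of the type that came second. Astrocytes ranked first for 8 genes, oligodendrocytes for 4 and inhibitory neurons for 3. Excitatory neurons ranked first for none and last for 28. Over all 41 genes together, the summed level was 11778.5 ± 3218.2 CPM (SD, n = 8) in microglia, 3790.8 ± 368.8 in astrocytes, 3198.7 ± 648.3 in oligodendrocytes, 2930.4 ± 315.7 in OPCs, 1971.2 ± 339.9 in inhibitory neurons and 1469.4 ± 118.3 in excitatory neurons. Each type's sums overlapped between libraries with those of the type next in this order, except in microglia, where the lowest microglial sum, 7929.8 CPM, lay above the highest sum of astrocytes, 4478.7.

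**Figure D1:**
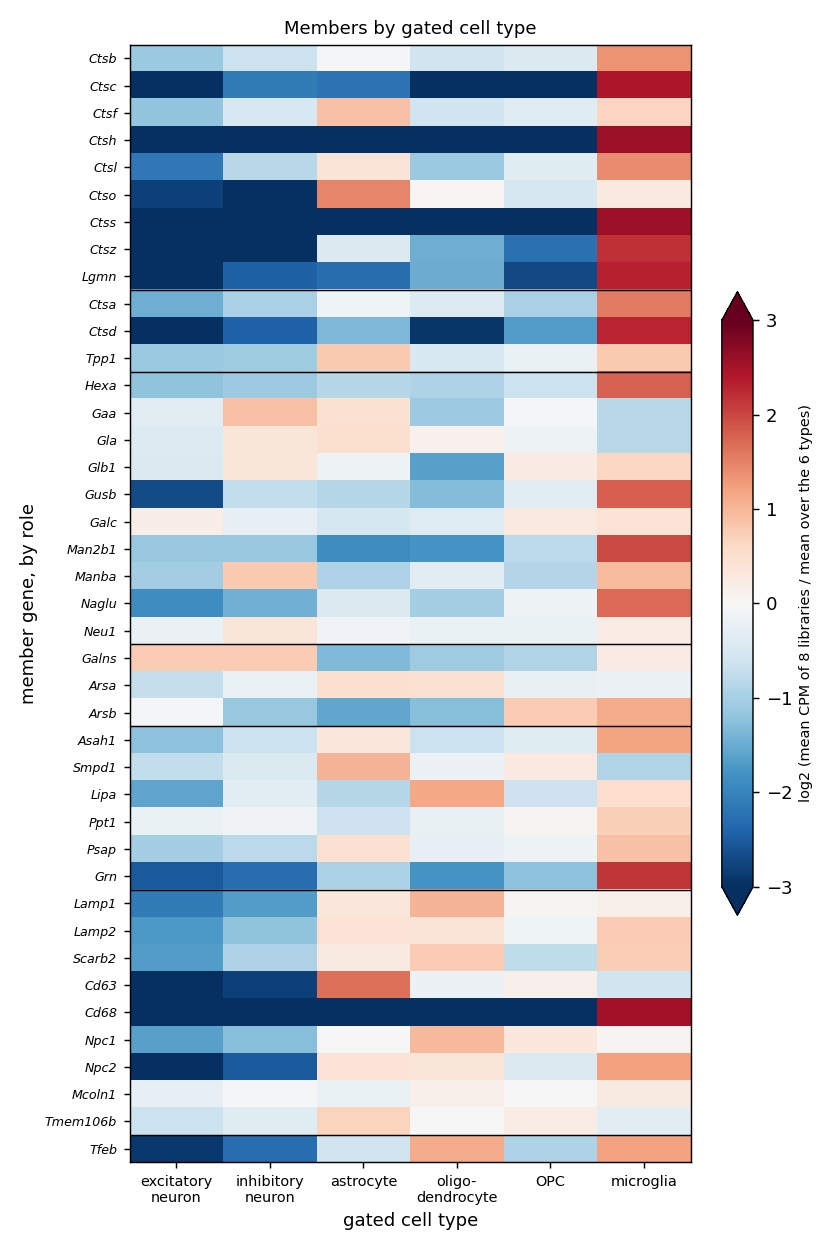
Level of each of the 41 genes (vertical axis, ordered by role) in 6 gated cell types (horizontal axis), coloured by the log2 of the type's mean CPM over 8 libraries against the mean over the 6 types; colours end at 3 on either side. The microglial column is red for most cathepsins, for Lgmn, Grn and Cd68, and blue for Gaa, Gla, Smpd1 and Cd63 among others, which were highest elsewhere.

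Among the cysteine proteases, Ctss, which encodes cathepsin S, an enzyme of antigen processing, was the clearest microglial gene. It lies on chromosome 3, from 95526786 to 95556403 on the plus strand of GRCm38. In microglia, the WT libraries had 1314.7, 2149.9 and 2178.2 CPM, the libraries labelled GKO 1344.8, 1340.3 and 1656.6, and the J20 libraries 2968.9 (J20;WT) and 2412.8 (J20;GKO). In excitatory neurons, no library passed 4.267 CPM. Legumain, which cleaves after asparagine and processes cathepsins, followed the same pattern. Lgmn reached 1818.3 ± 540.4 CPM (SD, n = 8) in microglia, 128.7 ± 28.1 in oligodendrocytes and 33.86 ± 4.44 in excitatory neurons. Ctsz, an exopeptidase, had 744.9 ± 369.9 CPM in microglia and 120.8 ± 27.27 in astrocytes, and the microglial libraries ranged from 250.3 to 1246.5 without meeting the astrocytic ones.

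Other cathepsins were shared with astrocytes. Ctso, a less studied member, was highest in astrocytes in all 8 libraries, at 117.8 ± 21.46 CPM against 51.95 ± 11.79 in microglia. Ctsf was also highest in astrocytes in each library, at 109.0 ± 20.33 CPM, but its microglial level of 93.79 ± 22.08 overlapped with it. Ctsb, an abundant endopeptidase and exopeptidase, was broadly expressed. It had 490.7 ± 180.8 CPM in microglia, 184.6 ± 23.2 in astrocytes, 143.2 ± 23.32 in OPCs and 89.49 ± 14.56 in excitatory neurons.

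Enzymes of glycans and lipids were spread over more types. Gaa, the lysosomal acid α-glucosidase that degrades glycogen, was highest in inhibitory neurons, at 114.1 ± 23.57 CPM, with 85.34 ± 14.21 in astrocytes and 35.05 ± 10.97 in microglia. Smpd1, which encodes acid sphingomyelinase, was highest in astrocytes in every library, at 90.89 ± 15.3 CPM, and lowest in microglia, at 24.23 ± 7.56. Gla, the α-galactosidase A of globotriaosylceramide breakdown, stayed under 9 CPM on average in every type, and its microglial value rests on 14 UMIs over the 8 mice. Lipa, the acid lipase of cholesteryl esters, was highest in oligodendrocytes in all 8 libraries, at 66.63 ± 12.51 CPM, although their range met that of microglia, at 42.41 ± 8.695.

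Psap, the precursor of the saposins that present sphingolipids to hydrolases, was high everywhere, from 199.7 ± 26.38 CPM in excitatory neurons to 742.8 ± 134.1 in microglia. Grn, which encodes progranulin, a secreted and lysosomal protein whose loss causes dementia, had 364.5 ± 114.5 CPM in microglia, 43.02 ± 6.544 in astrocytes and 14.48 ± 1.344 in excitatory neurons. Microglia did not overlap with any other type for Grn.

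The membrane genes did not share 1 order. Lamp1 was highest in oligodendrocytes, at 576.6 ± 227.8 CPM, followed by astrocytes at 355.7 ± 65.94 and microglia at 313.5 ± 122.5, and these 3 overlapped. Lamp2, which encodes the membrane protein used in chaperone-mediated autophagy, was highest in microglia in each library, at 289.6 ± 49.55 CPM, with astrocytes at 230.1 ± 22.35. Npc1, the cholesterol exporter of the limiting membrane, was highest in oligodendrocytes, at 201.2 ± 31.53 CPM, whereas its luminal partner Npc2 was highest in microglia, at 236.2 ± 78.53. Cd63, a tetraspanin of late endosomes, was highest in astrocytes, at 239.8 ± 41.79 CPM with no overlap with the OPCs that came next. Cd68, the glycoprotein commonly stained in phagocytes, had 245.4 ± 126.6 CPM in microglia, against a mean of at most 2.747 in any other type. Tmem106b, a membrane protein linked to lysosome size and to frontotemporal dementia, was highest in astrocytes in every library, at 87.94 ± 13.52 CPM.

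Tfeb itself was high in microglia, at 100.8 ± 16.72 CPM, and in oligodendrocytes, at 93.49 ± 15.26, which overlapped with each other, and low in excitatory neurons, at 5.868 ± 1.6. TFEB is known to bind an E-box in promoters of lysosomal genes, the CLEAR element, which holds CACGTG. The 8 letters TCACGTGA, a palindrome and so the same on both strands, which contain CACGTG, were searched in windows from 250 bases before to 50 bases after each annotated start, with sequences from RefSeq. Of the 41 genes, 36 were matched, and 4 of them (11.1%) held TCACGTGA, against 1.12% of 27025 genes. The 6 letters CACGTG alone were in 33.3% of the matched genes and in 8.09% of all. The stretches around TCACGTGA are shown for these 4 genes, since they hold a motif that most of the set lacks, 5′ to 3′ on the strand of the gene, with the motif in capitals.
Ctsa, chr2:164833734-164833810, GRCm38.p6, plus strand: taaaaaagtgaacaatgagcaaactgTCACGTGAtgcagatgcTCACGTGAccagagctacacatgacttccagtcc
Ctsd, chr7:142387893-142387952, GRCm38.p6, minus strand: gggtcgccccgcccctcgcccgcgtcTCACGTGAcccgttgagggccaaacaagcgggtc
Mcoln1, chr8:3500447-3500506, GRCm38.p6, plus strand: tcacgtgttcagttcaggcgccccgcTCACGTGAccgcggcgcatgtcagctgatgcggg
Gla, chrX:134601167-134601255, GRCm38.p6, minus strand: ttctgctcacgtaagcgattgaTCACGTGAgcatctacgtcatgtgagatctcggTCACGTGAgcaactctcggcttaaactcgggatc
A match describes letters only and does not show binding in these nuclei. The 4 genes differed in where they were high. Ctsa, the protective protein of β-galactosidase and neuraminidase, and Ctsd, an aspartic protease, were highest in microglia without overlap. Gla had its highest mean in astrocytes, at 8.533 CPM, and overlapped there with inhibitory neurons, at 7.93. Astrocytes were highest for Gla in 4 of 8 libraries. The levels of Mcoln1, the calcium channel of the lysosomal membrane, overlapped between microglia, at 20.04 ± 8.49 CPM, and oligodendrocytes, at 18.56 ± 3.482.

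The difference between microglia and neurons was tested within mice, on UMIs summed per mouse and type, with edgeR's quasi-likelihood test and Benjamini-Hochberg adjustment over all genes. Calls needed a log2 fold change beyond 0.3 in either direction and an adjusted p below 0.05. Against excitatory neurons, 32 of 41 genes were higher in microglia, where 29.4% of 17665 tested genes were, and 3 were lower, where 38.6% were. The median log2 fold change was 2.04, against -0.15 over all genes. All 9 cysteine proteases and the 3 other proteases were higher. So were 6 of 10 glycosidases, 1 of 3 sulfatases, 5 of 6 genes of the lipid group, 7 of 9 membrane genes and Tfeb.

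The largest differences were those of Ctsh, an aminopeptidase (log2 fold change 9.15, SE 0.14, adjusted p = 1.79e-47 by edgeR), Ctss (8.85, SE 0.16), Cd68 (6.87, SE 0.13) and Ctsc, the dipeptidyl peptidase that activates serine proteases (6.15, SE 0.11). They were followed by Ctsz (5.59, SE 0.19), Lgmn (5.34, SE 0.13), Ctsd (4.77, SE 0.31) and Grn (4.24, SE 0.11). For each of these 8, microglia were above excitatory neurons in all 8 mice. Excitatory neurons held 0.06% to 0.401% of the microglial level of the 9 microglial genes outside the gate, which corresponds to ratios of 249.3 to 1666.1. Free RNA and unrecognised doublets cannot be told apart in such shares. The ratios of mean CPM were 753.1 for Ctsh and 613.2 for Ctss, within that range, and no neuronal expression is read from their UMIs. For Cd68, at 157.7, and Ctsc, at 91.36, the ratio was under that range.

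The 3 genes lower in microglia than in excitatory neurons were Galns, a sulfatase of keratan sulfate (log2 fold change -0.87, SE 0.15, adjusted p = 9.77e-07 by edgeR's quasi-likelihood test), Gaa (-0.85, SE 0.13) and Smpd1 (-0.53, SE 0.16). Gla was at -0.83 with an SE of 0.39 and an adjusted p of 0.0523 in edgeR. Galns lies entirely under Gm20388, a gene of the other strand with 253553 UMIs, and whether the counting used strand is not stated, so its value is uncertain. Lamp1 (1.81, SE 0.15), Lamp2 (2.10, SE 0.09), Psap (1.52, SE 0.09), Ctsb (2.04, SE 0.10), Npc2 (4.11, SE 0.12), Cd63 (3.84, SE 0.21) and Tfeb (3.71, SE 0.16) were higher in microglia. Tmem106b did not pass, at -0.05 with an SE of 0.13, and had a value of 0.31 when libraries were scaled by their totals alone.

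**Figure D2:**
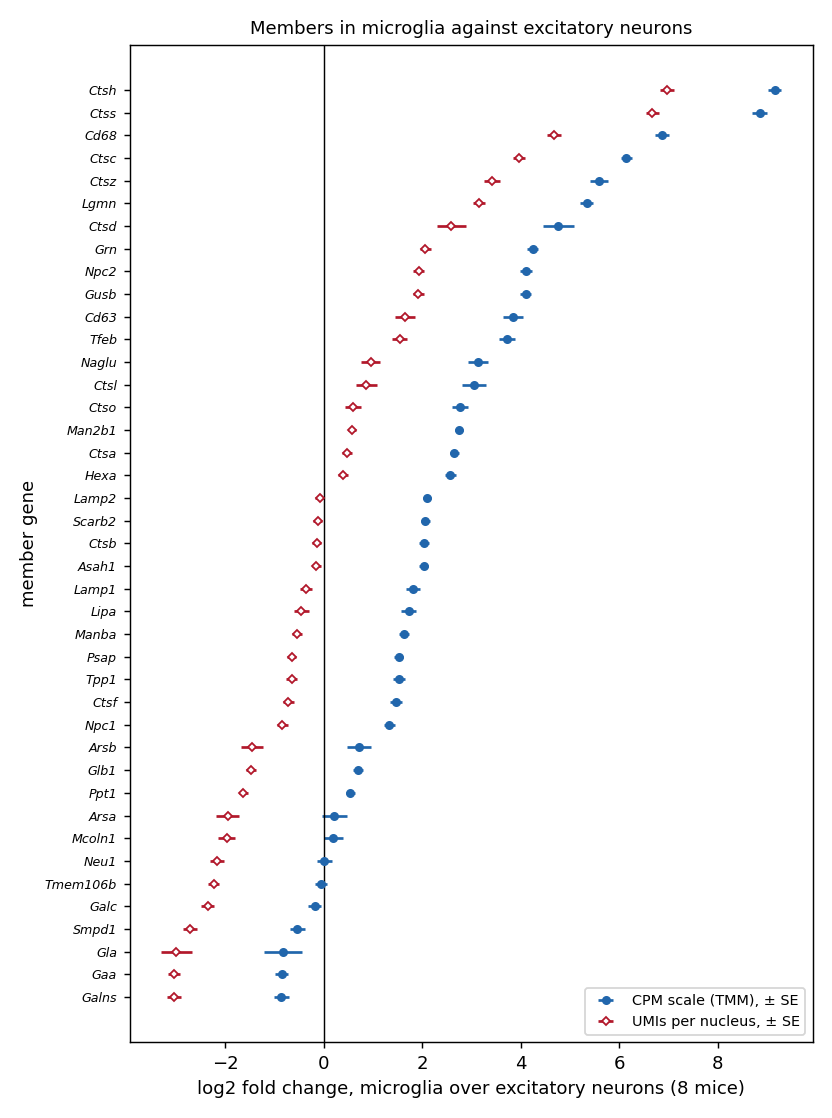
Log2 fold change of each gene (vertical axis) in microglia over excitatory neurons (horizontal axis) with its SE, n = 8 mice, after TMM scaling of CPM (filled) and on UMIs per nucleus (open). All open points lie to the left of the filled ones, and Ctsh, Ctss and Cd68 stay far to the right on both scales.

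Levels per nucleus gave another picture, since excitatory nuclei held more UMIs. On mean UMIs per nucleus, 18 genes were higher in microglia than in excitatory neurons and 19 lower, against 8.09% and 88.2% of 16156 genes, and the median of all genes moved from -0.15 to -2.43. Ctss had 3.796 UMIs per microglial nucleus and 0.03621 per excitatory nucleus. Psap, in contrast, had 1.497 per microglial and 2.312 per excitatory nucleus. Inhibitory neurons ranked first for 17 genes on this scale and microglia for 13. CPM describes the share of a type's RNA and not the number of molecules in a nucleus.

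Against inhibitory neurons, 40 genes could be tested. Of these, 31 were higher in microglia, against 37.7% of 12301 genes, and 3 were lower, against 37.2%, with a median log2 fold change of 1.84 against 0.02 over all genes. All 9 cysteine proteases and all 3 other proteases were again higher, with 5 of 9 tested glycosidases, 1 of 3 sulfatases, 5 of 6 lipid genes, 7 of 9 membrane genes and Tfeb (3.29, SE 0.17). The largest values were those of Ctss (9.77, SE 0.20), Ctsh (8.57, SE 0.16) and Cd68 (7.92, SE 0.20), then Ctsz (5.51), Lgmn (4.59), Ctsc (4.42), Grn (4.21) and Ctsd (4.20). Gaa was the lowest, at -1.78 (SE 0.14, adjusted p = 1.9e-12 by edgeR), followed by Galns (-0.61, SE 0.15) and Smpd1 (-0.60, SE 0.16). Neu1, a sialidase, had -0.27 (SE 0.17) and did not pass. Both comparisons use the same microglial sums. On UMIs per nucleus, 13 genes were higher and 25 lower in microglia than in inhibitory neurons, against 6.77% and 90.3% of 13979 genes.

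Other lysosomal genes were read by function, beside 29.4% of all genes higher and 38.6% lower in microglia than in excitatory neurons. Against inhibitory neurons these shares were 37.7% and 37.2%. Of 22 further hydrolases and activators, 15 were higher in microglia than in excitatory neurons and 2 lower, among them Pld4, an exonuclease (9.01, SE 0.15). Of 20 further membrane genes, 11 were higher and 7 lower, from Laptm5 (9.46, SE 0.14) to Lamp5 (-2.28, SE 0.30). Against inhibitory neurons, 16 of 19 tested hydrolases and activators were higher and 1 lower, and 11 of 20 membrane genes were higher and 7 lower. Of 17 tested subunits of the proton pump that acidifies lysosomes, 6 were higher than in excitatory neurons and 7 lower, near the shares of all genes. Sorting receptors and their partners had 2 higher and 5 lower of 10, with Igf2r, a mannose 6-phosphate receptor, at -3.30 (SE 0.26). Of 19 genes of lysosomal biogenesis and nutrient sensing, 10 were higher and 3 lower, among them the Tfeb relatives Mitf (2.29, SE 0.09) and Tfe3 (2.47, SE 0.11).

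The question of whether GSAP loss alters these genes was addressed with the 3 WT and 3 GKO mice. No member was called in any of the 6 types, and none of the 68582 tests of genes in types was, so 0% were called. With edgeR, 4 of 37 members tested in microglia had an unadjusted p under 0.05, all lower in the libraries labelled GKO, where 1.33% of all genes were. Grn had 285.1, 401.8 and 474.8 CPM in the WT libraries and 247.3, 256.6 and 270.2 in those labelled GKO. The groups did not overlap, and the log2 fold change was -0.59 (SE 0.19, adjusted p of 1 by edgeR). Ctsc had 301.0, 294.1 and 276.5 CPM in WT and 232.5, 215.4 and 205.5 in GKO, also without overlap (-0.42, SE 0.15). Gaa was at -0.73 (SE 0.28). In all, 5 of 37 members had the 3 GKO libraries below the 3 WT libraries, against 3.41% of all genes, and the median was -0.18 against 0.00 over all genes. The 9 microglial genes outside the gate had a median of -0.28 in the same comparison. Their part in the result was not tested.

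In other types, the members of lowest unadjusted p were Ctsb in excitatory neurons (-0.22, SE 0.09), Arsa, a sulfatase of myelin lipids, in inhibitory neurons (-0.81, SE 0.30), Tmem106b in astrocytes (-0.36, SE 0.15), Scarb2, a membrane protein that also acts as a sorting receptor, in oligodendrocytes (-0.41, SE 0.21) and Smpd1 in OPCs (-0.57, SE 0.25). None passed the adjusted threshold, and medians over the members were between -0.16 in oligodendrocytes and -0.01 in OPCs.

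The libraries with the J20 transgene were compared with the other 6, with GSAP genotype as a covariate. This rests on 2 mice, and the 6 other mice are also those of the comparison of GKO with WT. No member was called in any type by edgeR at the adjusted threshold. Over all genes, 0.346% were called in excitatory neurons, 0% in inhibitory neurons, 0.0337% in astrocytes, 0.0171% in oligodendrocytes, 0.0108% in OPCs and 0% in microglia. Without adjustment, the members leaned to one side. In microglia, 19 of 39 tested members had p under 0.05 and were higher in J20, where 3.74% of all genes were, and 38 of 39 had a positive log2 fold change, with a median of 0.52 against -0.02 over all genes. Without the J20;GKO library, that count was 4 of 39. The 9 microglial genes outside the gate had a median of 0.43 in microglia, with 8 positive and 2 at p under 0.05. Both J20 libraries lay above the other 6 for 4 of these 9 genes. Their part was not tested. In oligodendrocytes, 14 of 37 members were higher at p under 0.05, against 4.44%, with a median of 0.30. The 10 gate markers of oligodendrocytes summed there to 28638.9 and 26393.5 CPM in the J20 libraries and to 17737.1 to 24301.5 in the others. A list of 10 neuronal genes had a median of -0.57 there, opposite in sign to the members. The part of both lists was not tested. In excitatory neurons, 8 of 41 were higher, against 7.09%, with a median of 0.12.

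**Figure D3:**
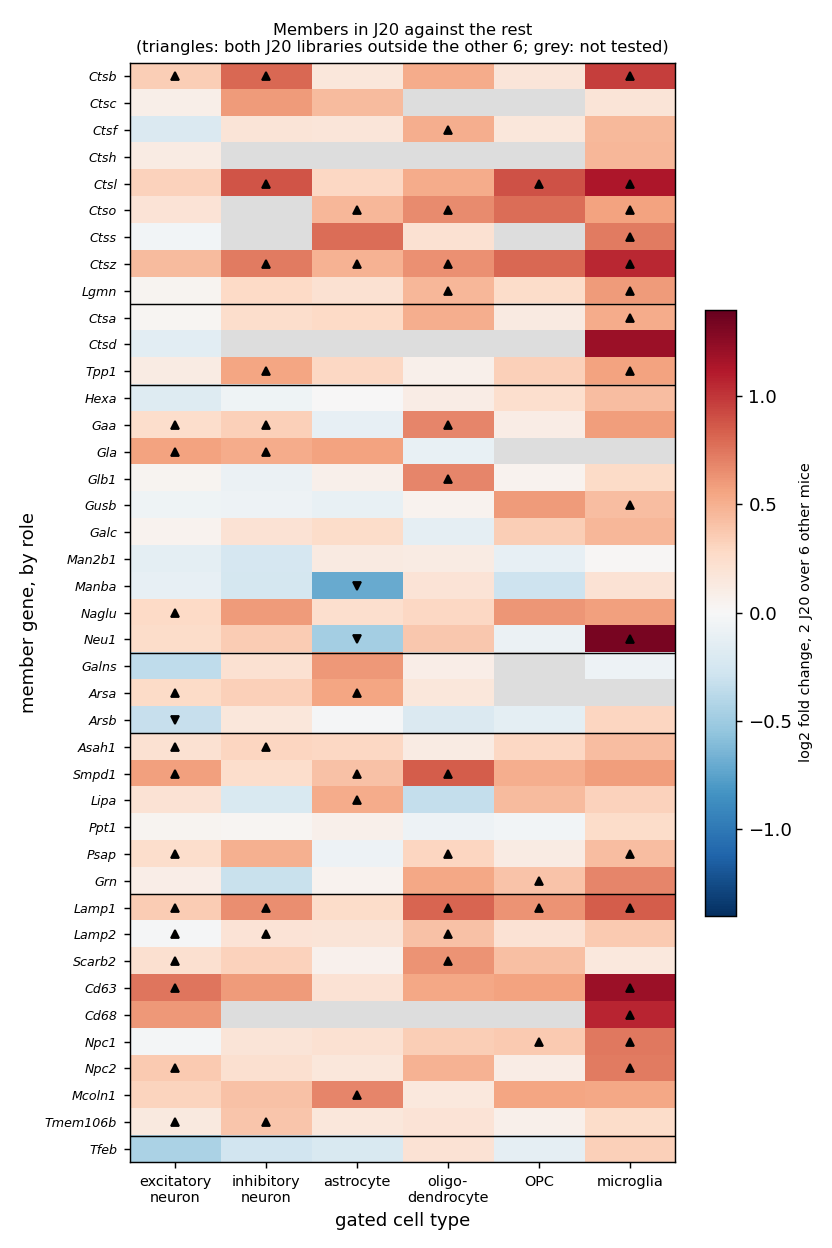
Log2 fold change of each gene (vertical axis, by role) in the 2 J20 mice over the other 6 (colour) in 6 cell types (horizontal axis); triangles mark genes with both J20 libraries outside the range of the other 6, and grey cells were not tested. The microglial column holds a negative value for Galns alone and holds 16 upward triangles, and Lamp1 has an upward triangle in 5 types.

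Both J20 libraries lay above the other 6 for 16 of 39 members in microglia, against 4.46% of all genes. The same held for 14 of 41 in excitatory neurons (10.7%), 11 of 37 in oligodendrocytes (4.93%), 10 of 36 in inhibitory neurons (7.43%), 6 of 38 in astrocytes (5.68%) and 4 of 33 in OPCs (5.16%). By role, the 16 in microglia were 6 of 9 cysteine proteases, 2 of 3 other proteases, 2 of 9 tested glycosidases, 1 of 6 lipid genes and 5 of 9 membrane genes. Lamp1 was above in 5 types, all but astrocytes, and Ctsz in 4. Among tested members, those with both J20 libraries below the other 6 were Arsb in excitatory neurons, and Manba and Neu1 in astrocytes. That was 1 of 41 members against 807 of 17359 genes, and 2 of 38 against 772 of 11864.

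Ctsb had the lowest p among the members in microglia. Its levels were 346.3, 474.9 and 438.2 CPM in WT, 317.0, 350.5 and 466.5 in GKO, 727.0 in J20;GKO and 804.9 in J20;WT. Both J20 libraries stood clear of the other 6, and the log2 fold change was 0.97 (SE 0.17, adjusted p = 0.171 by edgeR). Neu1, which removes sialic acid from glycoproteins and gangliosides, had 18.65, 34.70 and 33.91 CPM in WT, 23.70, 32.08 and 27.76 in GKO, 66.25 in J20;GKO and 71.96 in J20;WT. Its log2 fold change was 1.33 (SE 0.28, adjusted p = 0.241 by edgeR). Npc1 had 75.65 to 107.4 CPM in the 6 mice without the transgene and 157.2 and 151.7 in the J20 libraries (0.74, SE 0.19). All 3 genes were outside the range of the 6.

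**Figure D4:**
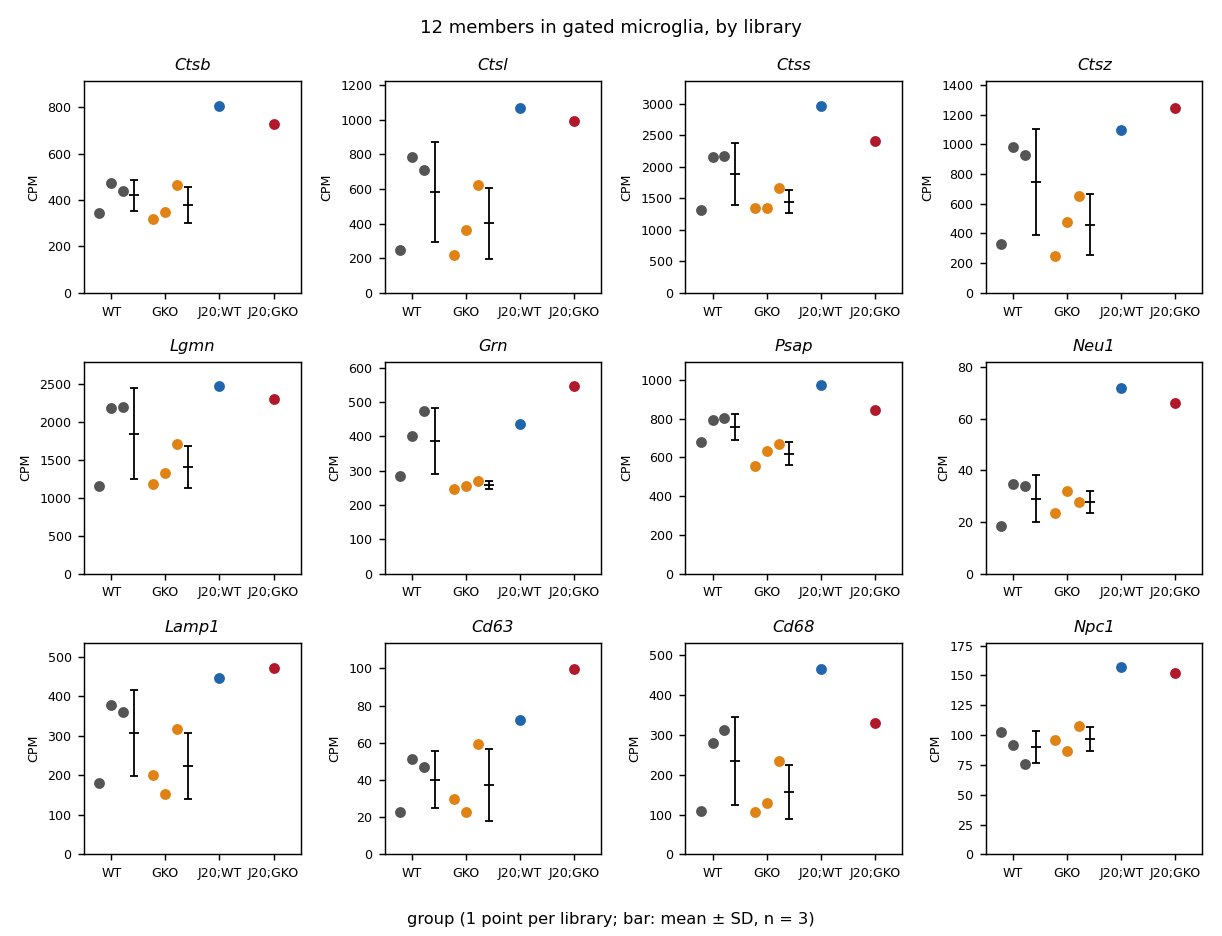
CPM in gated microglia (vertical axes) of 12 genes by group (horizontal axes), 1 point per library, with the mean and SD of the 3 WT and of the 3 GKO libraries. For 11 of the genes, such as Ctsb, Neu1 and Npc1, both J20 points lie above the other 6, while for Grn a WT point lies between them. The 12 genes were picked for display. Over all 39 tested members, both J20 libraries lay above for 16, against 4.46% of all genes.

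Further members had values of similar size. Ctss had 2968.9 and 2412.8 CPM in the J20 libraries and 1314.7 to 2178.2 in the others (0.72, SE 0.19). Cd63 had 71.96 and 99.37 CPM against 22.64 to 59.23 (1.20, SE 0.34), Cd68 463.7 and 329.5 against 106.6 to 313.0 (1.07, SE 0.44), and Lamp1 447.7 and 470.7 against 153.5 to 378.1 (0.85, SE 0.34). In these 4 the groups did not overlap. Grn, at 434.4 and 545.7 CPM, overlapped with the third WT library, at 474.8 (0.69, SE 0.21). Ctsd had 26.65 and 43.58 CPM and overlapped with that library too, at 39.13 (1.20, SE 0.45). It had 89 UMIs in microglia in all, and a gene of the same strand, AC034099.1, covers 55.7% of its length. Npc2 (0.73, SE 0.23), Psap (0.43, SE 0.16), Lgmn (0.59, SE 0.23) and Lamp2 (0.37, SE 0.17) had smaller values. Tfeb was at 0.34 (SE 0.21) and Tmem106b at 0.26 (SE 0.29).

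In other types, the members of lowest p differed from type to type. Smpd1 in excitatory neurons had 37.71 and 35.12 CPM in the J20 libraries and 16.20 to 28.04 in the others (0.57, SE 0.14, adjusted p = 0.126 by edgeR). Ctsb had 113.4 and 105.7 CPM there against 69.10 to 92.80 (0.34, SE 0.09), and Lamp1 85.57 and 78.00 against 50.27 to 66.89 (0.35, SE 0.10). None of these groups overlapped. In inhibitory neurons, Ctsb (0.80, SE 0.18), Ctsl (0.88, SE 0.20) and Lamp1 (0.66, SE 0.16) had the lowest p. In OPCs, Ctsl had 285.3 and 268.6 CPM against 97.17 to 210.1 (0.89, SE 0.23). In oligodendrocytes, Ctso (0.66, SE 0.16), Smpd1 (0.84, SE 0.22) and Gaa (0.68, SE 0.19) came first. In astrocytes, Ctso was at 0.47 (SE 0.16) and Manba, a β-mannosidase, at -0.70 (SE 0.26), with 22.19 and 18.28 CPM against 27.23 to 37.17.

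The difference between types was tested directly, with an interaction of J20 and type in microglia and excitatory neurons. This test was chosen after the data were seen. No member was called by edgeR, against 0.147% of all genes. At an unadjusted p under 0.05, 15 of 41 members had a larger J20 difference in microglia, where 2.86% of all genes had. Of the 41 members, 39 had a positive value, with a median of 0.48. The 9 microglial genes outside the gate had a median of 0.42 there, with 7 positive and 3 at p under 0.05. The 10 neuronal genes had a median of -0.63. Their part in the result was not tested. Ctsl was called when any of 4 mice was left out: the second WT, the third WT, the third GKO or the J20;WT mouse.

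Other microglial genes moved with these values. The first WT and first GKO libraries, which had Xist RNA and the same date, had the lowest summed levels of the 41 genes in microglia. The sums were 8290.5, 13450.8 and 13319.7 CPM in WT, 7929.8, 8855.0 and 10976.4 in GKO, 15282.2 in J20;GKO and 16123.7 in J20;WT. The 9 microglial genes outside the gate moved along, at 6785.3, 10729.2 and 10698.0, then 6873.8, 8094.4 and 9356.8, and 10631.0 and 12326.0 in the same order. This sum includes Trem2 and Tyrobp, which are also among the genes known from microglia near amyloid. Divided by that sum, the members were at 1.22, 1.25 and 1.25 in WT, 1.15, 1.09 and 1.17 in GKO, 1.44 in J20;GKO and 1.31 in J20;WT. A sum of 10 neuronal genes in gated microglia was 1541.1 to 4600.8 CPM, lowest in J20;GKO and at 2462.5 in J20;WT. The 10 markers of border macrophages summed to 561.4 CPM in J20;GKO and 223.9 in J20;WT against 409.6 to 743.5 in the others, and Pf4, Lyve1 and Clec10a were at 0. Their part in the result was not tested.

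**Figure D5:**
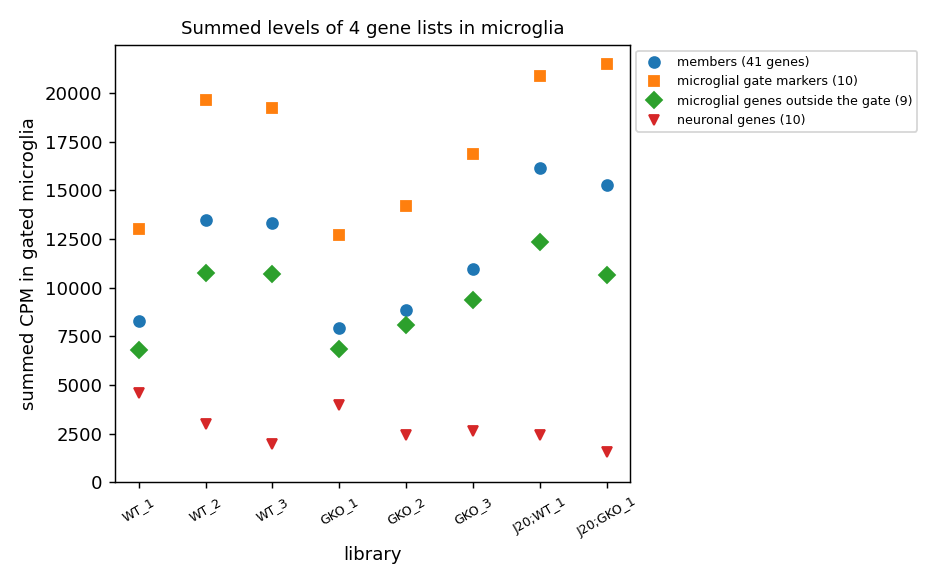
Summed CPM in gated microglia (vertical axis) in each of the 8 libraries (horizontal axis) of the 41 genes, of the 10 gate markers, of 9 microglial genes outside the gate and of 10 neuronal genes. The 41 genes reach 16123.7 and 15282.2 in the J20 libraries and are lowest, at 8290.5 and 7929.8, in the first WT and first GKO libraries, where the microglial lists are also low.

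With Xist RNA entered as a term, an alternative chosen after the data were seen, 19 of 224 pairs of a member and a type were called, all higher in J20, where 1.09% of all genes in types were. They belonged to 9 genes. In microglia these were Ctsb (1.03, SE 0.14, adjusted p = 0.000499 by edgeR), Ctss (0.80, SE 0.14), Neu1 (1.42, SE 0.27) and Cd63 (1.31, SE 0.31). Excitatory neurons had Smpd1, Lamp1, Ctsb and Ctsl, and inhibitory neurons had Lamp1, Ctsb and Ctsl. Oligodendrocytes had Ctso, Scarb2, Smpd1, Lamp1 (0.98, SE 0.16), Ctsb and Ctsl, and OPCs had Lamp1 and Ctsl. Among the mice without the transgene, Xist RNA was in the first WT and first GKO mice alone, which also share a date. The term cannot tell Xist RNA from date in those mice. Within the 5 libraries that share a date, where J20;GKO is the only J20 mouse, J20 and Xist RNA cannot be told apart, and that 1 library is assumed to vary like the others. There, 12 pairs were called, 10 of them in microglia and higher, where 0.639% of all genes were. The others were Lamp1, higher in oligodendrocytes, and Galns, lower in excitatory neurons. Ctsb in microglia had 0.85 (SE 0.18).

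The paired question, J20;GKO against J20;WT, has 1 mouse per group and no test, and the 2 libraries differ in date and in Xist RNA as well as in genotype. Exact Poisson 95% intervals cover counting error only. In microglia the intervals of 37 of 41 members met, and 4 members were lower in J20;GKO. They were 4 of the 32 members with at least 50 UMIs, against 5.59% of all genes with as many. Arsb, a sulfatase of dermatan and chondroitin sulfate, had 273.7 CPM (232.6 to 320.0) in J20;GKO, against 522.4 (451.8 to 600.8) in J20;WT. The 6 mice without the transgene ranged from 153 to 485 CPM for Arsb. Ctss went from 2968.9 to 2412.8 CPM, Cd68 from 463.7 (397.4 to 538.0) to 329.5 (284.2 to 380.0), and Ppt1, a palmitoyl thioesterase, from 359.8 to 256.3. Ppt1 was at 227 to 298 in the 6 mice without the transgene, and for Ctss and Cd68 both J20 libraries lay above them. The median log2 ratio over the 32 was 0.00, and 0.30 on UMIs per nucleus.

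In excitatory neurons, 2 members were higher and 8 lower in J20;GKO of 39 with at least 50 UMIs, against 14.1% and 17.6% of all genes with as many. The median log2 ratio was -0.10 and turned to 0.32 on UMIs per nucleus. Galns had 23.36 CPM (20.83 to 26.11) in J20;GKO, against 44.32 (40.73 to 48.14) in J20;WT. The former was below all 6 mice without the transgene, which ranged from 37.10 to 46.17. Tfeb had 6.33 CPM (5.049 to 7.837) in J20;GKO, against 3.385 (2.45 to 4.559) in J20;WT, where the 6 other mice were at 4.419 to 8.683. By the same minimum, lower in J20;GKO were 5 of 29 members in inhibitory neurons (4.66% of all genes), 5 of 32 in oligodendrocytes (9.22%), 3 of 24 in astrocytes (6.68%) and 0 of 16 in OPCs (3.23%). Lamp1 was among them in inhibitory neurons, astrocytes and oligodendrocytes, in the last with 710.1 CPM (671.7 to 750.2) in J20;GKO, against 986.5 (928.0 to 1047.8) in J20;WT.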

How the data were processed

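Libraries were made on the 10X Genomics platform from hippocampal nuclei of 8 mice. The deposited values are UMI counts for each gene in each nucleus, which the authors obtained with Cell Ranger from an alignment to mm10 and did not normalize. They also worked in Seurat 3.0 and R 3.6.2, per the labels. Whether intronic reads were counted is not stated, and reads near the 3′ end do not allow levels to be compared between genes. Nuclei with 200 to 7500 genes and at most 5% mitochondrial UMIs were kept, 32041 of 33314.

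A nucleus was assigned to a type when at least 3 of its 10 markers were detected, at 2 times or more the number of the next type. Clusters (scanpy 1.11.5), named from the same markers, served as an alternative. Doublets were not called, and nuclei with mixed markers stayed unassigned. UMIs were summed per mouse and type and tested with edgeR 4.0.16 in R 4.3.3 (TMM, filterByExpr, robust quasi-likelihood fit), with Benjamini-Hochberg adjustment over all genes tested. The mouse was a block in comparisons of types. The scripts were tested on simulated data. DESeq2 1.42.0, other scaling, filters, gates, batches and leaving out each mouse were alternatives.

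The members, the gene lists and the tests were chosen with earlier results of these data known. Named with values were, for microglia against neurons, the 8 largest and 4 smallest changes, for the other comparisons the members called or, with none called, the 3 of lowest p per type, and 14 members whatever their values. Others named were chosen after their values were seen. The microglial list used 9 of 10 genes, since the symbol Itgam was not unique. Over genes, the deviations of same-numbered WT and GKO libraries from their genotype means were correlated, and the coefficients were positive in every type. Each of the 3 pairs passed 0.1 only in excitatory neurons (0.56, 0.25 and 0.18), astrocytes and oligodendrocytes. The first pair also shares Xist RNA and a date. Since deviations are taken from the mean of the same 3 libraries, the 3 coefficients depend on one another. They are not separate evidence of pairing.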

Additional observations from a re-analysis of the deposited data

How the results depend on the processing

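The 2 J20 mice, 3 mice per genotype and a median of 1942 UMIs per microglial nucleus limit what could be detected. Counts of members higher and lower in microglia than in excitatory neurons were 18 and 19 on UMIs per nucleus, and 5 were lower in the 6 WT and GKO mice alone. Against inhibitory neurons they were 13 and 25 per nucleus, and 5 were lower with no filter on low counts. Per nucleus, the log2 fold change against excitatory neurons reversed for Ctsb (-0.14), Lamp1 (-0.37), Lamp2 (-0.08) and Psap (-0.65), and against inhibitory neurons for Cd63 (-0.41), Ctsb (-0.55), Lamp1 (-0.76), Lamp2 (-0.60) and Psap (-0.86). Tmem106b reversed too, to 0.31 and 0.05 with library size alone. It also reversed to 0.012 without the mouse as a block and to 0.027 with a stricter gate against inhibitory neurons. Library size alone moved the median of all genes from -0.15 to 0.22 against excitatory neurons and from 0.02 to 0.15 against inhibitory neurons. The cause was not tested for the others.

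No member was called for GKO under any alternative, including a block for the replicate number, which pairs WT and GKO libraries (0 calls). In comparisons of types without the mouse as a block, 32 members were higher in microglia than in excitatory neurons. Against inhibitory neurons 30 were higher, and 3 were lower in each comparison. For J20, DESeq2 called 2 pairs of a member and a type (0.499% of all genes in types), no filter 13 (0.366%), the libraries of the second date alone 12 (0.559%) and the Xist term 19 (1.69%). A microglial gate without homeostatic genes called Ctsb (adjusted p = 0.0453 by edgeR), 1 of 2 genes called there. Leaving out 1 mouse gave 0 to 1, with Ctsb in microglia called without the first WT mouse, and 4 to 21 members at an unadjusted p under 0.05 in microglia. The interaction called 1 member with no filter and 0 to 1 with 1 mouse left out. The median ratio of the J20 pair was 0.30 per nucleus in microglia and 0.32 in excitatory neurons. Of the values of named genes, 1186 kept direction and side of the threshold, 37 passed it newly, 1 was lost and 13 reversed.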

Other observations

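Other lysosomal genes were read in J20 microglia from the same fits, which rest on 2 J20 mice. None was called by edgeR at the adjusted threshold. All 18 tested hydrolases and activators outside the set had a positive log2 fold change, with a median of 0.34, and 4 had an unadjusted p under 0.05, where 3.74% of all genes were higher at that level. Proton pump subunits had a median of 0.14, with Atp6v0e at 135.9 and 115.1 CPM in the J20 libraries against 46.62 to 85.85 in the 6 others (1.02, SE 0.24). Sorting genes had a median of -0.16 and genes of biogenesis and nutrient sensing of -0.01.

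Of 17 genes known from microglia near amyloid, 7 of which belong to the 41, 14 were tested in J20 microglia. All 14 had a positive log2 fold change, with a median of 1.08. An unadjusted p under 0.05 was reached by 8, all higher, against 3.74% of all genes. Both J20 libraries lay above the other 6 for 11, against 4.46%. Among the 11 were the members Ctsb, Ctsl, Ctsz, Cd63, Cd68 and Lgmn, which were already counted above. The median and the counts are thus not separate from those of the members. Lpl, lipoprotein lipase, had 23.99 and 20.92 CPM in the J20 libraries and 0 to 7.404 in the others (2.70, SE 0.74, adjusted p = 0.465 by edgeR). Csf1, a microglial growth factor, had 29.32 and 26.15 CPM against 6.873 to 16.44 (1.42, SE 0.44). Tyrobp, the adaptor of TREM2, had 804.9 and 643.3 against 217.1 to 526.1 (1.08, SE 0.32). Apoe, a lipid carrier, was at 0.004 (SE 0.24) and had 469.1 CPM in J20;WT, the lowest of the 8 libraries, and 960.6 in J20;GKO, the highest. These genes were named after their values were seen.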
